A study of Mus musculus with 15 samples.

Results

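The genes described here are the 4 best-known transcripts of the mouse MHC class II pathway (H2-Aa, H2-Ab1, H2-Eb1 and Cd74), both chains of the peptide-loading chaperone H2-DM (H2-DMa and H2-DMb1) and their activator Ciita. They were chosen by symbol, as 7 of the 23337 gene symbols in the files. All 7 passed the filter on low counts, which left 15181 genes for testing.

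The study sorted progenitor cells from mouse bone marrow and sequenced RNA from 15 libraries. The groups were GMP (granulocyte-monocyte progenitors) from Trappc1 knockout mice (KO GMP, n = 3, numbered 1, 3 and 4) and from wild-type mice (WT GMP, n = 4), and CMP (common myeloid progenitors) from knockout mice (KO CMP, n = 4) and from wild-type mice (WT CMP, n = 4). Per the labels, all animals were untreated, and all cells were lineage-negative, Sca1-negative, CD117-positive and CD34-positive, with CD16/32 high in GMP and low in CMP. The sources used here do not give the deleted exons, any Cre driver, the strain, the age or the number of animals behind a library. They also do not say whether replicate libraries are different animals. All p-values below therefore refer to the spread among the libraries, part of which may be technical.

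MHC class II molecules are pairs of an alpha and a beta chain that show peptides from endocytosed proteins to CD4 T cells. H2-Aa and H2-Ab1 encode the chains of I-A, and H2-Eb1 encodes the beta chain of I-E. The invariant chain Cd74 fills the groove of new pairs in the endoplasmic reticulum and guides them to endosomes, where H2-DM exchanges its remnant for peptide. Ciita is a co-activator that binds no DNA itself and docks on a complex of RFX, NF-Y and CREB family proteins on the X and Y boxes of class II promoters. In bone marrow these genes are known for high levels in dendritic cells, B cells and some macrophages, and for low levels along the granulocyte path.

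Library totals ran from 61.3 to 120.3 M count units, or about 15.3 to 30.1 M fragments if a fragment is worth 4 units. Levels are given as CPM, counts per 1000000 of the library total after scaling between libraries. Trappc1 measured 6.09, 24.1 and 25.2 CPM in KO GMP libraries 1, 3 and 4, against 41.3, 37.0, 30.9 and 33.3 CPM in WT GMP libraries 1 to 4, and 5.56, 3.83, 11.7 and 13.4 CPM in KO CMP libraries 1 to 4, against 18.4, 26.2, 18.8 and 25.2 CPM in WT CMP. Within each cell type no KO library reached a WT library. KO GMP 1 and KO CMP 1 and 2 stood apart from the other libraries. On the first principal component KO GMP 1 lay at -6.77, the other GMP libraries at 47.6 to 54.4 and the CMP libraries at -61.3 to -14.7. These 3 libraries held Xist, the RNA of X inactivation, at 109 to 204 CPM, against at most 2.17 CPM elsewhere. WT libraries 1 and 2 also parted from WT libraries 3 and 4, so values are given within these number sets too. The sets were drawn from these same data, so p-values for differences between them are not independent support that the sets differ. Against WT libraries 1 and 2, the log2 change of Trappc1 was -2.25 in KO CMP 1 and 2 and -2.69 in KO GMP 1. In numbers 3 and 4 it was smaller, -0.80 in CMP and -0.38 in GMP, and did not pass an adjusted p under 0.05. A lack of calls in numbers 3 and 4 therefore refers to a smaller loss of Trappc1 RNA. In numbers 1 and 2 every KO library held Xist and no WT library did, so genotype and whatever set Xist cannot be told apart there, and values called knockout against wild type in that set carry both. Results that rest on these 3 libraries are given with and without them.

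Promoter sequence is shown for the members whose start region held both boxes, since these boxes are where the docking complex of Ciita binds. The sequences are the 250 bases before the start of transcription in RefSeq (GRCm38.p6), printed 5′ to 3′ on the strand of the gene, with an X box and a Y box in capitals. They lie at chr17:34287824-34288073, minus strand (H2-Aa), chr17:34305617-34305866, plus strand (H2-Eb1) and chr17:34152941-34153190, plus strand (H2-DMb1).
H2-Aa: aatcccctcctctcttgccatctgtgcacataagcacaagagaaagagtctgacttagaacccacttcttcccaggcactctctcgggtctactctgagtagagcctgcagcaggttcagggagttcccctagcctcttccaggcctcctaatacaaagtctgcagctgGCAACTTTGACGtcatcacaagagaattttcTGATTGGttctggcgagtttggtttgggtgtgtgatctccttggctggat
H2-Eb1: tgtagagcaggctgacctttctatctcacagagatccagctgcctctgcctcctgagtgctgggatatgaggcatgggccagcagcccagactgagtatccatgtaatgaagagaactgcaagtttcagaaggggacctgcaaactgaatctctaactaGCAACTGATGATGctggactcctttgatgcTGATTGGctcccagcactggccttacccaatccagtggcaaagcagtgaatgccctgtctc
H2-DMb1: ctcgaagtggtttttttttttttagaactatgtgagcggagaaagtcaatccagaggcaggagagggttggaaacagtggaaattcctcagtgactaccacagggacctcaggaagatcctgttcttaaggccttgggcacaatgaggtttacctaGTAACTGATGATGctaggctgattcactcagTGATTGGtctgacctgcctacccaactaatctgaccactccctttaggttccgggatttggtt
The Y box was searched as TGATTGG and the X box as GNAAC followed after 2 or 3 bases by TGANG, on both strands. The X pattern was written after these promoters had been read, so the matches are a description. A Y box was found in 7.23% of 32851 RefSeq promoters and an X box in 1.49%. An X box with a Y box up to 30 bases on was found in 9 promoters (0.0274%), those of H2-Aa, H2-Eb1, H2-DMb1 and H2-Ob among them. Between the boxes lay 19 bases in H2-Aa, 17 in H2-Eb1 and 18 in H2-DMb1. Neither RefSeq start of H2-DMa held a match in this window. These windows end at chr17:34122831 and chr17:34125517, in a gene annotated from 34119541 to 34139101. Whether they lie at the start of its principal transcript was not checked, so H2-DMa cannot be said to lack the boxes. By symbol 4 of the 7 genes were matched in the RefSeq table, and H2-Ab1, Cd74 and Ciita were not.

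In wild-type mice, GMP held far less class II RNA than CMP. Of the 7 genes, 6 fell in GMP at an adjusted p under 0.05 and 0 rose, where 14.2% of all 15181 tested genes fell and 11.3% rose. The fall was 7.64-fold for H2-Aa, 7.73-fold for Cd74, 6.32-fold for H2-Eb1, 4.04-fold for H2-Ab1, 14.2-fold for Ciita and 1.67-fold for H2-DMa. The median log2 change was -2.66 over the 7 genes and -0.015 over all tested genes. In bulk RNA, fewer cells of a type and less RNA per cell cannot be told apart.

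H2-Aa (ENSMUSG00000036594.15, chromosome 17, 34282744 to 34287823, minus strand), the alpha chain of I-A, measured 10.7, 12.2, 16.2 and 16.5 CPM in WT GMP libraries 1 to 4, against 93.2, 99.8, 111 and 122 CPM in WT CMP libraries 1 to 4. Every WT GMP library was below every WT CMP library, and the log2 change was -2.93 ± 0.57 (adjusted p = 0.00248). A ± beside a log2 change is its standard error, and adjusted p-values are from edgeR's quasi-likelihood test over all tested genes. H2-Ab1 (ENSMUSG00000073421.6, chromosome 17, 34257689 to 34269419, plus strand), its beta partner, measured 35.1, 36.2, 37.6 and 35.5 CPM in WT GMP, against 129, 113, 159 and 182 CPM in WT CMP. The 4 WT GMP values lay close together and far below WT CMP, and the log2 change was -2.02 ± 0.35 (adjusted p = 0.00134). H2-Eb1 (ENSMUSG00000060586.11, chromosome 17, 34305867 to 34316674, plus strand), the beta chain of I-E, measured 8.67, 10.8, 13.9 and 13.9 CPM in WT GMP, against 59.3, 61.4, 83.4 and 94.6 CPM in WT CMP. Its groups did not overlap either, with a log2 change of -2.66 ± 0.53 (adjusted p = 0.00298). The matching alpha chain is listed as a pseudogene (H2-Ea-ps) and was at 0 in all libraries but WT GMP 3, where it had 7 count units. Cd74 (ENSMUSG00000024610.15, chromosome 18, 60803848 to 60812652, plus strand), the invariant chain, measured 28.4, 30.2, 35.7 and 38.3 CPM in WT GMP, against 217, 239, 261 and 308 CPM in WT CMP, a log2 change of -2.95 ± 0.56 (adjusted p = 0.00223). Positions are on GRCm38 (GENCODE M21).

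Ciita (ENSMUSG00000022504.10, chromosome 16, 10480059 to 10528418, plus strand), the co-activator, had the lowest level of the 7 genes. It measured 0.761, 0.566, 1.07 and 1.10 CPM in WT GMP libraries 1 to 4, against 11.7, 11.3, 15.5 and 11.2 CPM in WT CMP libraries 1 to 4. No WT GMP library came near a WT CMP library, and the log2 change was -3.82 ± 0.75 (adjusted p = 0.00266). The WT GMP values rest on few reads, 10 to 28.25 fragments per library if a fragment is worth 4 units, against 237.75 to 444.5 in WT CMP, so its fold in GMP is less precise than those of the chains. Of its principal transcript, 1.85% lies under exons of Dexi on the opposite strand, and the sources used here do not say whether the counting used strand.

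The chaperone chains followed the class II chains in part. H2-DMa (ENSMUSG00000037649.10, chromosome 17, 34119541 to 34139101, plus strand) measured 69.3, 69.6, 54.5 and 53.3 CPM in WT GMP, against 85.5, 88.5, 111 and 127 CPM in WT CMP. The groups did not overlap, and the log2 change was -0.74 ± 0.17 (adjusted p = 0.00696). H2-DMb1 (ENSMUSG00000079547.4, chromosome 17, 34153072 to 34160230, plus strand) measured 50.05, 43.8, 40.6 and 40.02 CPM in WT GMP, against 46.3, 48.9, 55.4 and 60.6 CPM in WT CMP. Its groups overlapped, and the change of -0.28 ± 0.17 (adjusted p = 0.267) did not pass, with a 95% interval of -0.65 to 0.10. Without the 3 libraries that stood apart, which are all KO, it passed (adjusted p = 0.0448), with 18.3% of all tested genes lower in that fit. H2-DMb1 shares 22.7% of its 50-base words with its neighbour H2-DMb2, so reads of the pair may have been split between them. No overlap between WT GMP and WT CMP, with GMP lower, was seen for 6 of the 7 genes and for 17% of all tested genes, and the reverse for 0 of the 7 and 14.8% of all.

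**Figure D1:**
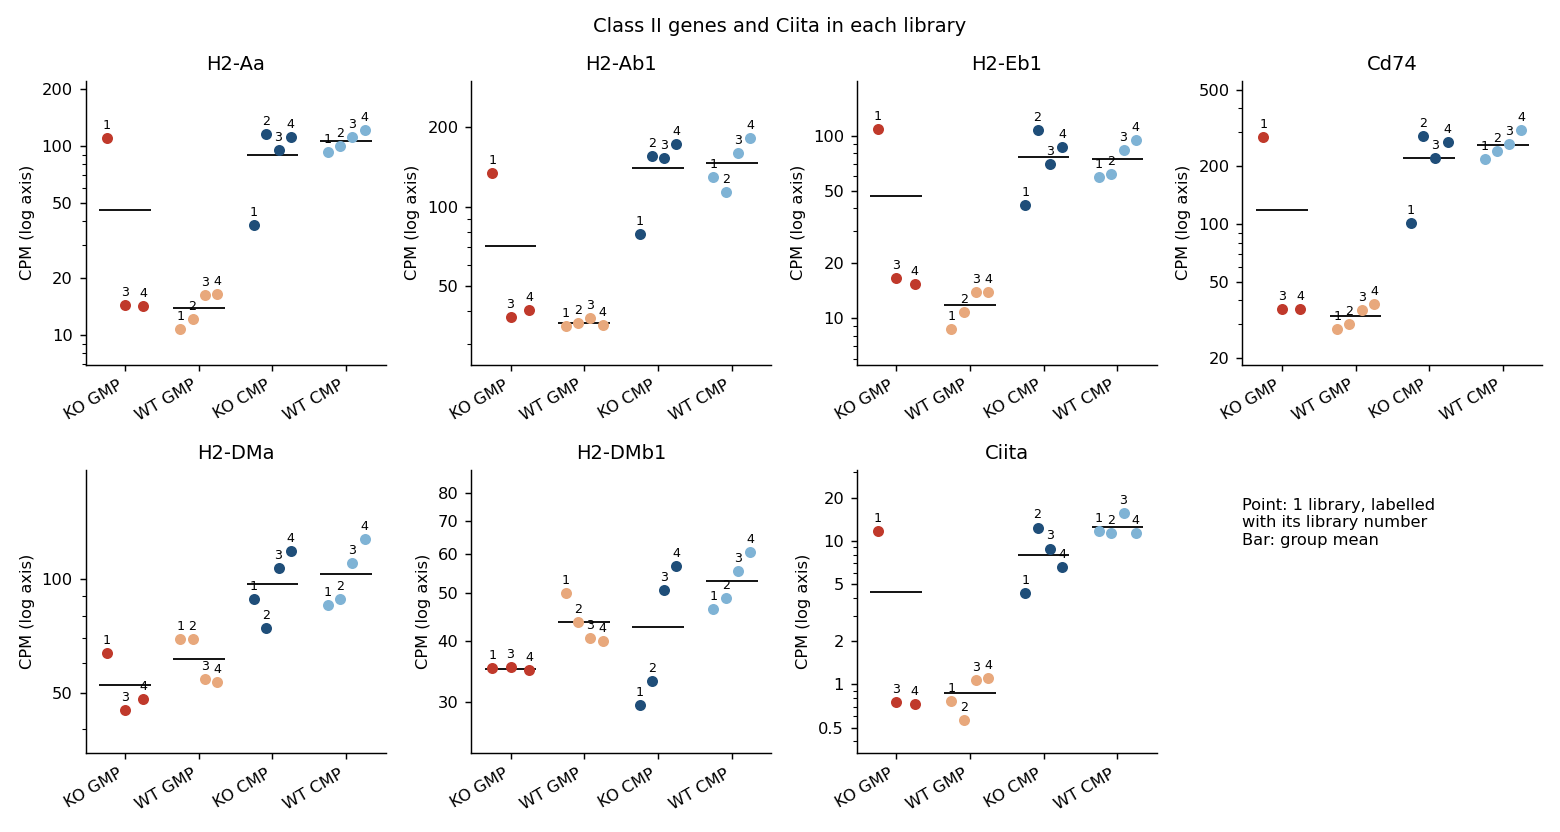
Each panel plots 1 gene in CPM on a log axis, with the groups KO GMP, WT GMP, KO CMP and WT CMP from left to right; points are libraries labelled with their number, and bars are group means. For H2-Aa, H2-Ab1, H2-Eb1, Cd74 and Ciita, KO GMP 1 sits among the CMP libraries while KO GMP 3 and 4 sit beside WT GMP, and KO CMP 1 is the lowest CMP library.

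The fall of both DM chains in wild-type GMP differed between the number sets, and that of the other 5 genes was not found to. In numbers 1 and 2, 6 of the 7 genes fell and 0 rose, where 14% of all tested genes fell and 11% rose. In numbers 3 and 4 all 7 fell, where 19.3% of all tested genes fell and 19.2% rose. H2-DMa changed by -0.33 ± 0.10 (adjusted p = 0.0285) in numbers 1 and 2, with 69.3 and 69.6 CPM in WT GMP and 85.5 and 88.5 CPM in WT CMP. In numbers 3 and 4 it changed by -1.14 ± 0.10 (adjusted p = 1.81e-06), with 54.5 and 53.3 CPM in WT GMP and 111 and 127 CPM in WT CMP. H2-DMb1 changed by -0.02 ± 0.09 (adjusted p = 0.896) in numbers 1 and 2 and by -0.53 ± 0.09 (adjusted p = 7.39e-04) in numbers 3 and 4. The difference between the sets, a comparison added after the data were seen, was 0.82 ± 0.14 (adjusted p = 0.00378) for H2-DMa and 0.50 ± 0.13 (adjusted p = 0.0463) for H2-DMb1, where 1.61% of all tested genes were higher and 3.89% lower. For H2-Aa it was -0.24 ± 0.48 (adjusted p = 0.866), with a 95% interval of -1.29 to 0.80, and for Ciita -0.50 ± 0.56 (adjusted p = 0.716), with an interval of -1.72 to 0.73. The H2-DMa difference passed with any single library left out. The H2-DMb1 difference did not pass when KO CMP 3 or 4, KO GMP 3 or 4, WT CMP 1, 2 or 4, or WT GMP 1, 3 or 4 was left out (adjusted p = 0.0526 to 0.171). The H2-DMa fall in numbers 1 and 2 did not pass without WT CMP 1 or 2 or WT GMP 1 or 2 (adjusted p = 0.0777 to 0.112).

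Within a cell type the wild-type sets themselves differed in the DM chains. Since an earlier look at these data had shown the sets to part, the p-values here describe that split and do not test it independently. Per the test of WT CMP numbers 1 and 2 against numbers 3 and 4, H2-DMa was lower, with a change of -0.45 ± 0.10 (adjusted p = 0.00651), and so was H2-DMb1, with -0.29 ± 0.09 (adjusted p = 0.0454), as were 10.6% of all tested genes, with 12.3% higher. In WT GMP the same comparison gave 0.37 ± 0.10 (adjusted p = 0.0384) for H2-DMa, where 3.16% of all tested genes were higher and 5.45% lower. The other 5 genes in WT CMP and the other 6 in WT GMP did not pass. In WT GMP the H2-DMa call was lost without any one of WT GMP 1, 2, 3 and 4 or KO GMP 3 and 4 (adjusted p = 0.0595 to 0.192). In WT CMP it was lost for H2-DMa without WT CMP 4 (adjusted p = 0.0671), and for H2-DMb1 without WT CMP 1, 2 or 4, WT GMP 3 or 4 or KO GMP 3 or 4 (adjusted p = 0.0614 to 0.231). Without KO CMP 1 or KO CMP 2 the fit called 6 and 5 of the 7 genes lower in WT CMP numbers 1 and 2. There 12.5% of all tested genes were lower in either fit, and 13.8% and 13.9% higher. In WT GMP both fits called 3 of the 7, 1 higher and 2 lower, where 4.35% and 4.37% of all tested genes were higher and 7.1% and 7.06% lower.

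Per kilobase of the principal transcript, the order of the 7 genes differed between the cell types. In WT GMP, H2-DMa led at 37.2 ± 5.42 CPM per kb (SD, n = 4), followed by H2-DMb1 at 31.1 ± 3.28, H2-Ab1 at 29.8 ± 0.909, Cd74 at 23.5 ± 3.29, H2-Aa at 12.3 ± 2.56, H2-Eb1 at 7.07 ± 1.53 and Ciita at 0.145 ± 0.0426. The first 3 overlapped between neighbours in this order, and the later ones did not. In WT CMP, Cd74 led at 182 ± 27.7 CPM per kb (SD, n = 4), followed by H2-Ab1 at 120.5 ± 25.4, H2-Aa at 94.3 ± 11.2, H2-DMa at 62.1 ± 11.9, H2-Eb1 at 44.7 ± 10.3, H2-DMb1 at 37.6 ± 4.60 and Ciita at 2.07 ± 0.345. There Cd74 stood clear of H2-Ab1, H2-Aa clear of H2-DMa and H2-DMb1 clear of Ciita, while the other neighbours overlapped. The DM chains were at or above the class II chains in WT GMP, and the invariant chain was above all 6 others in WT CMP.

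The ratios between the genes differed between the cell types. The sum of H2-Aa, H2-Ab1, H2-Eb1 and Cd74 per unit of Ciita, in CPM, was 94.7 to 158 in WT GMP, against 39.5 to 62.9 in WT CMP. KO GMP 3 and 4 had 139 and 146, KO GMP 1 had 54.3, and the KO CMP libraries had 54.0 to 97.9. The WT groups did not overlap in this ratio, and KO GMP 1 lay within the WT CMP range. H2-Aa per H2-Ab1 was 0.305 to 0.464 in WT GMP, against 0.669 to 0.880 in WT CMP, and KO GMP 3 and 4 had 0.378 and 0.350, KO GMP 1 had 0.818 and KO CMP had 0.481 to 0.744. Both chains of I-A thus differed in the size of their fall. H2-DMa per H2-Aa was 3.24 to 6.46 in WT GMP, against 0.887 to 1.05 in WT CMP. KO GMP 3 and 4 had 3.15 and 3.40 and KO GMP 1 had 0.583. These ratios are not corrected for transcript length and are given as a description, with no test.

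**Figure D2:**
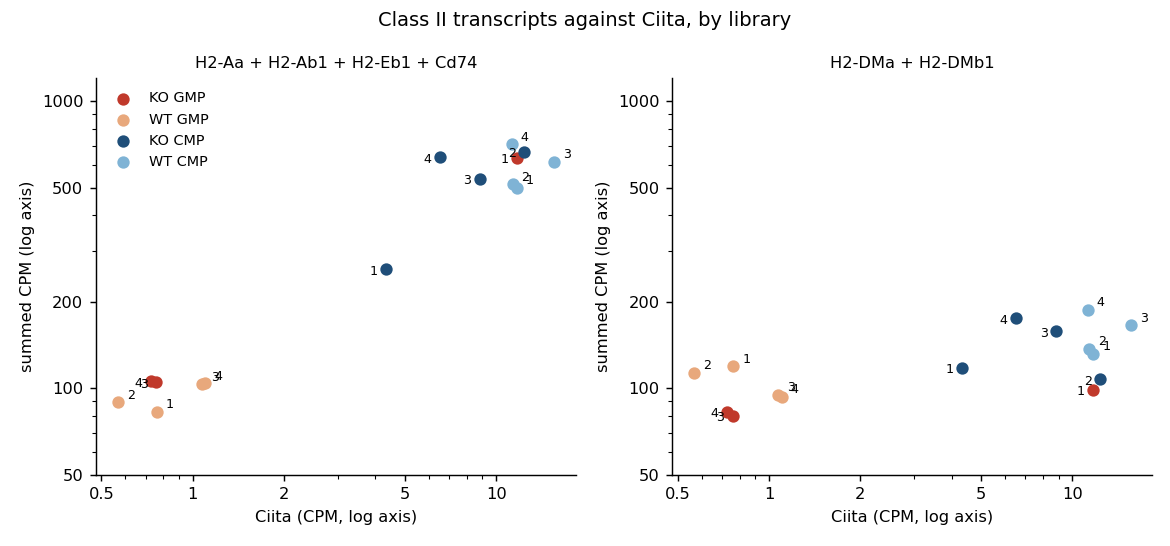
Both panels plot Ciita on the x axis in CPM (log axis), against the summed CPM of H2-Aa, H2-Ab1, H2-Eb1 and Cd74 on the left and of H2-DMa and H2-DMb1 on the right (log axes); points are libraries, coloured by group and labelled with their number. In the left panel KO GMP 1 (635 CPM) lies with the CMP libraries and KO CMP 1 (260 CPM, at 4.32 CPM of Ciita) lies between the clusters; in the right panel the sums span a much narrower range.

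In knockout mice the same comparison depended on KO GMP 1. KO GMP libraries 1, 3 and 4 held 109, 14.3 and 14.1 CPM of H2-Aa, against 38.0, 116, 94.5 and 111 CPM in KO CMP libraries 1 to 4. H2-Ab1 measured 134, 37.9 and 40.4 CPM in KO GMP, against 78.8, 156, 153 and 172 CPM in KO CMP. KO GMP 1 was above the lowest KO CMP library for both chains, and KO GMP 3 and 4 were below all of them. H2-Eb1 measured 109, 16.6 and 15.4 CPM in KO GMP, against 41.6, 108, 70.3 and 86.9 CPM in KO CMP. Cd74 measured 283, 36.2 and 35.9 CPM in KO GMP, against 101, 288, 219.5 and 268 CPM in KO CMP. Ciita measured 11.7, 0.758 and 0.726 CPM in KO GMP, against 4.32, 12.4, 8.83 and 6.51 CPM in KO CMP. KO GMP 1 was above every KO CMP library for H2-Eb1 and within their range for Cd74 and Ciita. H2-DMa measured 63.8, 45.1 and 48.1 CPM in KO GMP, against 88.6, 74.2, 107 and 118 CPM in KO CMP, with no overlap. H2-DMb1 measured 35.1, 35.3 and 34.8 CPM in KO GMP, against 29.6, 33.2, 50.7 and 56.9 CPM in KO CMP.

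Over all KO libraries 1 of the 7 genes fell in GMP, H2-DMa, with a change of -0.89 ± 0.19 (adjusted p = 0.00442), where 10.5% of all tested genes fell and 10.7% rose. H2-DMa was also the single member without overlap, where 14.5% of all tested genes were lower without overlap and 13.4% higher. H2-Aa changed by -0.97 ± 0.58 (adjusted p = 0.277) and Ciita by -0.86 ± 0.73 (adjusted p = 0.457), neither past the threshold. Without KO GMP 1, 6 of the 7 fell (15.2% of all genes tested in that fit), with H2-Aa at -2.66 (adjusted p = 1.49e-04) and Ciita at -3.43 (adjusted p = 6.35e-05). Without all 3 libraries that stood apart, 7 fell (13% of all genes), and DESeq2 called 2, H2-DMa and H2-Ab1 (adjusted p = 0.0251), on all libraries. Without KO CMP 1, 2 passed (8.48% of all genes were lower), H2-DMa and H2-Ab1 (-1.18, adjusted p = 0.0424). In numbers 3 and 4 alone all 7 genes fell in KO GMP, where 19.1% of all tested genes fell and 17.9% rose. There the log2 change was -2.85 ± 0.36 (adjusted p = 4.85e-05) for H2-Aa, -2.06 ± 0.23 for H2-Ab1, -2.30 ± 0.31 for H2-Eb1, -2.76 ± 0.34 for Cd74 and -3.36 ± 0.41 (adjusted p = 3.99e-05) for Ciita. H2-DMa changed by -1.28 ± 0.10 and H2-DMb1 by -0.62 ± 0.09. The wild-type values in the same set were -2.83 ± 0.36 for H2-Aa, -3.63 ± 0.41 for Ciita and -1.14 ± 0.10 for H2-DMa, and each differed from its KO value by less than the sum of both standard errors.

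Loss of Trappc1 was then compared with wild type in CMP. Over all CMP libraries 0 of the 7 genes passed, 0 of them had an unadjusted p under 0.05, and edgeR called 0% of all tested genes. Of all genes 1761 had such a p, and DESeq2 made 368 calls, 0 of the 7 among them. H2-Aa changed by -0.24 ± 0.53 (adjusted p = 0.917), with a 95% interval of -1.37 to 0.88. H2-Ab1 changed by -0.06 ± 0.34, H2-Eb1 by 0.04 ± 0.50 and Cd74 by -0.23 ± 0.52. Ciita changed by -0.64 ± 0.66 (adjusted p = 0.787), with an interval of -2.06 to 0.78, H2-DMa by -0.08 ± 0.17 and H2-DMb1 by -0.31 ± 0.17. For all 7 the KO and WT CMP libraries overlapped, while 3.25% of all tested genes were higher and 3.6% lower in the KO without overlap. H2-DMb1 was lower in the KO library of all 4 same-numbered CMP pairs and all 3 GMP pairs. The share of all tested genes with that pattern was not counted, so it is a description. KO CMP 1 and 2 and KO GMP 1 also carry the Xist difference, and the labels do not say that a number marks a pair. With the number as a block H2-DMb1 did not pass in CMP (-0.33, adjusted p = 0.335) or in GMP (-0.37, adjusted p = 0.639). Without the 3 libraries that stood apart 0 passed as well, in CMP and in GMP. The KO libraries left are those of numbers 3 and 4, where Trappc1 was reduced least. The intervals of H2-Aa and Ciita reach beyond a log2 change of -1, so changes of that size were not detectable with this spread.

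The knockout libraries of numbers 1 and 2 differed from each other. KO CMP 1 had the lowest level of all CMP libraries for H2-Aa, H2-Ab1, H2-Eb1, Cd74 and Ciita, at 38.0, 78.8, 41.6, 101 and 4.32 CPM in that order. KO CMP 2 held 116, 156, 108, 288 and 12.4 CPM of the same genes, above every WT CMP library for H2-Eb1 and within their range for the other 4. Set against WT CMP 1 and 2, 1 of the 7 genes, H2-DMb1, fell in KO CMP 1 and 2, with a change of -0.60 ± 0.09 (adjusted p = 6.88e-04), where 10.2% of all tested genes fell and 8.23% rose. The other 6 gave -0.46 (Ciita) to 0.31 (H2-Eb1) and did not pass. With KO CMP 2 left out, KO CMP 1 is the single KO library and is assumed to vary like the other groups, so a call compares that library and shows no replication. In that fit 6 of the 7 genes were called lower (11% of all genes were), with changes of -1.35 for H2-Aa, -1.17 for Cd74, -1.41 for Ciita, -0.62 for H2-Ab1 and -0.54 for H2-Eb1. With KO CMP 1 left out, and KO CMP 2 the single KO library, H2-Eb1 was instead called higher, by 0.83 (adjusted p = 0.00172). H2-DMb1 was lower with either left out, with -0.69 and -0.52. It measured 29.6 and 33.2 CPM in KO CMP 1 and 2, against 46.3 and 48.9 CPM in WT CMP 1 and 2.

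In numbers 3 and 4 the KO and WT CMP libraries were close, and 0 of the 7 genes passed (edgeR called 0.00659% of all tested genes, DESeq2 135 genes with 0 of the 7). Trappc1 itself changed by -0.80 ± 0.19 in this set and did not pass. H2-Aa measured 94.5 and 111 CPM in KO CMP 3 and 4, against 111 and 122 CPM in WT CMP 3 and 4. H2-DMb1 measured 50.7 and 56.9 CPM in KO CMP, against 55.4 and 60.6 CPM in WT CMP, a change of -0.11 ± 0.09 (adjusted p = 0.674). The most negative value was that of Ciita, -0.81 ± 0.36 (unadjusted p = 0.0437, adjusted p = 0.426), with 8.83 and 6.51 CPM in KO CMP, against 15.5 and 11.2 CPM in WT CMP. All 7 estimates were negative, from -0.81 to -0.07. The knockout effect on H2-DMb1 differed between the sets by -0.49 ± 0.13 (adjusted p = 0.0413), where 4.59% of all tested genes were lower and 3.05% higher. That call was lost without KO CMP 1 or 4, KO GMP 3 or 4 or WT CMP 1, 2 or 3 (adjusted p = 0.0521 to 0.139), and under another scaling of the libraries (adjusted p = 0.0563). With KO CMP 1 or 2 left out, numbers 1 and 2 hold a single KO CMP library. Without KO CMP 2 the difference between the sets was -1.17 for H2-Aa, -0.55 for H2-Ab1, -0.36 for H2-Eb1, -0.95 for Cd74 and -0.61 for Ciita. Without KO CMP 1 it was 0.45, 0.43, 1.01, 0.56 and 0.91 in the same order.

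**Figure D3:**
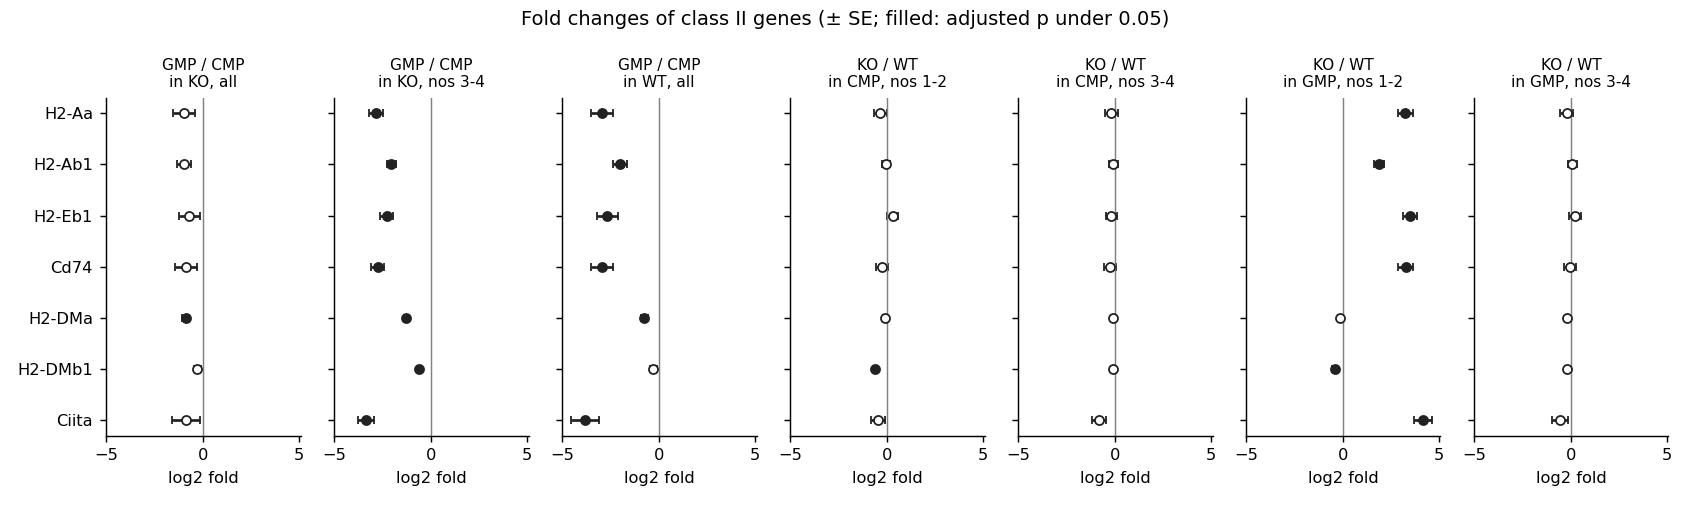
The 7 panels plot the log2 fold change of each gene on the x axis with its standard error, for GMP against CMP (in KO, in KO numbers 3 and 4, in WT) and for KO against WT (in CMP and in GMP, by number set); filled points have an adjusted p under 0.05. H2-Aa, H2-Ab1, H2-Eb1, Cd74 and Ciita lie far below 0 in WT (-3.82 to -2.02) and in KO numbers 3 and 4, and far above 0 for KO against WT in GMP numbers 1 and 2 (1.91 to 4.15), which holds 1 KO library.

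In GMP, H2-Aa, H2-Ab1, H2-Eb1, Cd74 and Ciita had positive estimates in the knockout, H2-DMa and H2-DMb1 negative ones, and 0 of the 7 passed. Over all GMP libraries the log2 change was 1.72 ± 0.57 for H2-Aa, 0.97 ± 0.37 for H2-Ab1, 1.99 ± 0.54 for H2-Eb1, 1.83 ± 0.57 for Cd74 and 2.32 ± 0.74 for Ciita, with unadjusted p-values of 0.00251 to 0.019 and adjusted p-values of 0.523 to 0.674. Of all tested genes 0% were called by edgeR, 985 had an unadjusted p under 0.05, and 60 were called by DESeq2, 0 of the 7 among them. H2-Ab1 and H2-Eb1 were higher in every KO GMP library than in every WT GMP library, as were 3.64% of all tested genes. H2-DMb1 was lower in every KO GMP library, at 35.1, 35.3 and 34.8 CPM, against 50.05, 43.8, 40.6 and 40.02 CPM in WT GMP, as were 3.7% of all tested genes. Its change of -0.31 ± 0.19 (adjusted p = 0.859) did not pass. Without KO GMP 1 the estimates were 0.03 for H2-Aa, 0.12 for H2-Ab1, 0.44 for H2-Eb1, 0.12 for Cd74 and -0.24 for Ciita.

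KO GMP 1 was then set against WT GMP 1 and 2. In this comparison the single KO library is assumed to vary like the others, so its calls describe that library, show no replication within the knockout, and carry the Xist difference named above. H2-Aa, H2-Ab1, H2-Eb1, Cd74 and Ciita were called higher in KO GMP 1, as were 11% of all tested genes. The change was 3.26 ± 0.40 (adjusted p = 1.43e-04) for H2-Aa, 1.91 ± 0.26 (adjusted p = 2.76e-04) for H2-Ab1, 3.48 ± 0.36 (adjusted p = 4.01e-05) for H2-Eb1, 3.27 ± 0.38 (adjusted p = 9.33e-05) for Cd74 and 4.15 ± 0.47 (adjusted p = 7.37e-05) for Ciita. KO GMP 1 held 109 CPM of H2-Aa, against 10.7 and 12.2 CPM in WT GMP 1 and 2. H2-DMb1 fell, with a change of -0.42 ± 0.12 (adjusted p = 0.0259), where 9% of all tested genes fell, and H2-DMa gave -0.12 ± 0.12 (adjusted p = 0.523). The H2-DMb1 call was lost without KO GMP 3, KO GMP 4 or WT GMP 1 (adjusted p = 0.0528, 0.053 and 0.172). KO GMP 1 exceeded KO CMP 1, of the same number and genotype, with 109 CPM in KO GMP 1 and 38.0 CPM in KO CMP 1 of H2-Aa, and 11.7 CPM in KO GMP 1 and 4.32 CPM in KO CMP 1 of Ciita. With 1 library on each side these differences have no replicate check.

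In numbers 3 and 4 of GMP 0 of the 7 genes passed, where edgeR called 0.0132% of all tested genes and DESeq2 42 genes, 0 of the 7 among them. Trappc1 itself changed by -0.38 ± 0.19 (unadjusted p = 0.0695) in this set, so these values come with a small loss of its RNA. H2-Aa changed by -0.20 ± 0.34, with 14.3 and 14.1 CPM in KO GMP and 16.2 and 16.5 CPM in WT GMP. Ciita changed by -0.54 ± 0.42 (adjusted p = 1), with 0.758 and 0.726 CPM in KO GMP and 1.07 and 1.10 CPM in WT GMP. H2-DMa gave -0.21 ± 0.10 and H2-DMb1 -0.20 ± 0.09, with unadjusted p-values of 0.0519 and 0.0534. The difference between KO and WT GMP differed between the sets for 5 of the 7 genes. Since numbers 1 and 2 hold 1 KO GMP library, this sets KO GMP 1 apart from the rest and shows no replicated difference. It was 3.45 ± 0.53 (adjusted p = 0.00139) for H2-Aa, 1.81 ± 0.34 (adjusted p = 0.00513) for H2-Ab1, 3.28 ± 0.48 (adjusted p = 9.65e-04) for H2-Eb1, 3.31 ± 0.50 (adjusted p = 0.00124) for Cd74 and 4.69 ± 0.63 (adjusted p = 6.22e-04) for Ciita, where 6.27% of all tested genes were higher and 4.36% lower. The difference cannot be computed without KO GMP 1. The knockout effect in GMP minus that in CMP passed for 0 of the 7 genes (edgeR called 0% of all tested genes, DESeq2 3), with estimates of -0.15 (H2-DMa) to 2.96 (Ciita, 95% interval 0.83 to 5.09, unadjusted p = 0.00987, adjusted p = 1). Without the 3 libraries that stood apart the estimate was 0.47 for Ciita, and for H2-Aa it was 0.10, against 1.97 on all libraries.

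Other genes of the class II pathway were followed as lists. Of 5 other class II chains, 4 were tested in WT GMP against WT CMP, and 2 fell. H2-Ob, the beta chain of the DM inhibitor H2-O, fell by 2.20 ± 0.35 (adjusted p = 7.35e-04), with 8.05, 9.04, 5.88 and 6.54 CPM in WT GMP and 25.8, 21.7, 44.0 and 44.5 CPM in WT CMP. Its promoter also held both boxes, as said above. H2-DMb2 fell by 0.73 ± 0.25 (adjusted p = 0.047), and H2-Oa, the alpha chain of H2-O, gave -0.34 ± 0.23 (adjusted p = 0.292). In KO GMP 1 against WT GMP 1 and 2, the median log2 change over these 4 was -0.004, with 0.48 ± 0.20 for H2-Ob. That comparison holds a single KO library and shows no replication, and whether these chains follow Ciita was not tested.

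Of 8 RFX, NF-Y and CREB family genes, Atf1 rose by 0.26 ± 0.08 (adjusted p = 0.0229) in WT GMP, Nfya fell by 0.41 ± 0.08 (adjusted p = 0.00296), and 6 did not pass. Rfxank, an RFX subunit, fell in both sets of knockout libraries that stood apart, with -1.78 ± 0.30 (adjusted p = 0.00124) in KO CMP 1 and 2 and -1.24 ± 0.38 (adjusted p = 0.0389) in KO GMP 1. It measured 8.21 CPM in KO GMP 1 and 7.35 and 8.81 CPM in KO CMP 1 and 2, against 10.8, 27.9, 30.7 and 31.0 CPM in WT GMP and 29.5, 25.9, 30.0 and 30.7 CPM in WT CMP. WT GMP 1 was low as well. Rfxap, another RFX subunit, fell in the same comparisons, with -0.38 ± 0.12 (adjusted p = 0.0469) in CMP and -0.82 ± 0.16 (adjusted p = 0.00266) in GMP. KO GMP 1 held low Rfxank and Rfxap with class II RNA at the CMP level, and WT GMP 1 held low Rfxank with low class II RNA. Each is a single library, and whether these levels are related was not tested.

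Of 12 genes that act upstream of Ciita, 2 rose and 2 fell in WT GMP, shares near those of all tested genes (11.3% rose and 14.2% fell). Ifngr1, a chain of the interferon gamma receptor, rose by 1.12 ± 0.22 (adjusted p = 0.00254) and Ifngr2, its partner, by 0.36 ± 0.12 (adjusted p = 0.039). The interferon regulatory factors Irf2 and Irf1 fell, with -0.56 ± 0.12 (adjusted p = 0.00386) for Irf2 and -0.46 ± 0.16 (adjusted p = 0.0491) for Irf1. Irf8, a transcription factor of monocytes and dendritic cells, was lower in the knockout libraries that stood apart, with -1.86 ± 0.17 (adjusted p = 7.76e-06) in KO CMP 1 and 2 and -1.84 ± 0.21 (adjusted p = 9.39e-05) in KO GMP 1. It measured 147 CPM in KO GMP 1, against 513 and 539 CPM in WT GMP 1 and 2.

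Of 9 antigen processing genes 7 were tested. In WT GMP, the endosomal proteases Ctsb and Ctsd rose, by 0.67 ± 0.13 (adjusted p = 0.0028) and 0.30 ± 0.10 (adjusted p = 0.0365), and Lgmn fell by 1.63 ± 0.40 (adjusted p = 0.00937). Ctss, the protease that trims the invariant chain in dendritic and B cells, gave -0.32 ± 0.34 (adjusted p = 0.539). It fell in KO CMP 1 and 2, with -1.16 ± 0.23 (adjusted p = 0.0033), and in KO GMP 1, with -1.55 ± 0.30 (adjusted p = 0.00296). Of 6 costimulation genes, Cd86 and Cd274 fell in WT GMP, with -1.58 ± 0.45 (adjusted p = 0.0212) for Cd86 and -0.54 ± 0.19 (adjusted p = 0.0469) for Cd274. Against WT GMP 1 and 2, the median log2 change of the 6 in KO GMP 1 was 1.51, with 5 positive. This rests on a single KO library and shows no replication. Cd80 was low throughout, at 0.948 CPM in KO GMP 1 and 0.225 and 0.099 CPM in WT GMP 1 and 2. Icosl went the other way, at 6.86 CPM in KO GMP 1 and 10.2 and 11.5 CPM in WT GMP 1 and 2. Cd86 measured 4.02 CPM in KO GMP 1, against 1.42 and 0.453 CPM in WT GMP 1 and 2. Of 18 genes of the class I pathway, 3 rose and 3 fell in WT GMP, again near the 11.3% and 14.2% of all tested genes. Its chaperones Calr (0.71 ± 0.12), Canx (0.57 ± 0.09) and Pdia3 (0.70 ± 0.13) rose, and Nlrc5, the class I counterpart of Ciita, fell by 0.70 ± 0.13 (adjusted p = 0.00159).

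**Figure D4:**
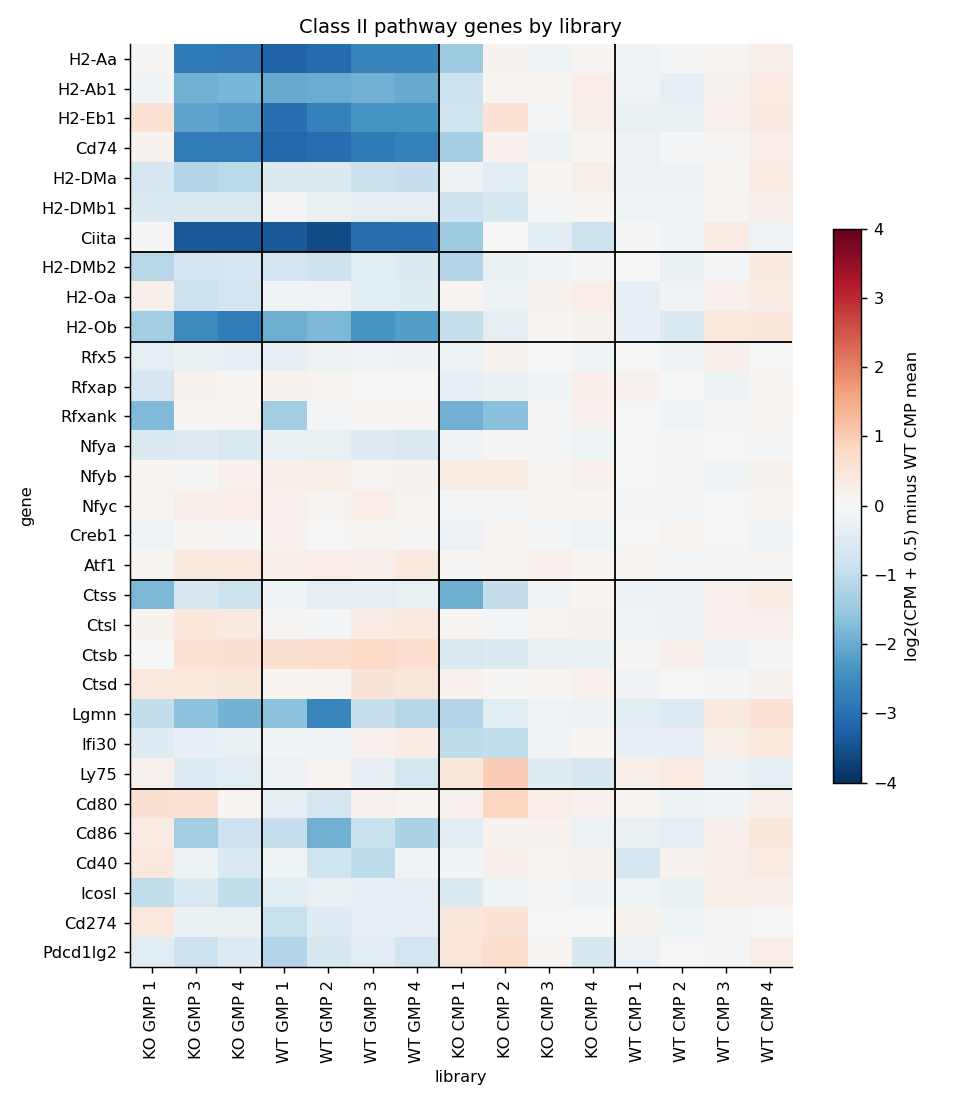
Rows are the 7 genes, then other class II chains, the docking proteins of Ciita, processing genes and costimulation genes, and columns are libraries in the order KO GMP, WT GMP, KO CMP and WT CMP; colour is log2(CPM + 0.5) minus the WT CMP mean. The blue block of KO GMP 3 and 4 and WT GMP covers H2-Aa, H2-Ab1, H2-Eb1, Cd74, Ciita and H2-Ob. H2-Ob is lower in KO GMP 1 too. Rfxank is blue in KO GMP 1, in KO CMP 1 and 2 and in WT GMP 1. Ctss is bluest in KO CMP 1 (-1.95) and KO GMP 1 (-1.78), and paler in KO CMP 2 (-0.96) and in KO GMP 3 and 4 (-0.64 and -0.86).

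Cell types known for class II (dendritic cells, B cells and some macrophages) were followed through their markers, as were T and NK cells and stroma. None of the markers is a member. Of 18 dendritic cell markers, 11 fell and 0 rose in WT GMP, where 14.2% of all tested genes fell and 11.3% rose, with a median log2 change of -1.98 against -0.015 over all tested genes. Their summed level was 654 to 759 CPM in WT GMP, against 957 to 1492 CPM in WT CMP. The change was -2.50 ± 0.42 for Itgax, -1.65 ± 0.28 for Id2 and -4.26 ± 0.98 for Zbtb46, and Flt3 and Clec9a fell as well. The sums rest mostly on Cst3, Flt3 and Bst2, which progenitors express too. The counts of the lists that follow are to be read against the same shares. Of 15 B cell markers 5 fell, with sums of 38.0 to 45.0 CPM in WT GMP and 47.8 to 65.5 CPM in WT CMP. These sums rest mostly on Cd79b, at 32.5 to 35.9 CPM in WT GMP. Ebf1, a B cell transcription factor, was at 0 in all 4 WT GMP libraries. Of 18 monocyte and macrophage markers 3 rose and 1 fell, with sums of 4501 to 5092 CPM in WT GMP and 1755 to 2449.6 CPM in WT CMP. Of 13 T and NK cell markers 12 were tested, and 6 fell and 1 rose, with Cd3g at 0 in all WT GMP libraries, and sums of 367 to 442 CPM in WT GMP and 141 to 276 CPM in WT CMP that rest mostly on Nkg7. Of 10 stroma markers 2 fell, with sums of 118 to 123 CPM in WT GMP and 134 to 161 CPM in WT CMP. The part of these cells in the class II result was not tested.

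KO GMP 1 differed from the other GMP libraries in several of these lists as well. Against WT GMP 1 and 2, the median log2 change was 1.07 over 18 dendritic cell markers, 13 of them positive, and 0.004 over all tested genes. Xcr1 was at 9.07 CPM in KO GMP 1 and 1.06 and 0.863 CPM in WT GMP 1 and 2. The summed dendritic markers, at 709 CPM in KO GMP 1, were within the WT GMP range. Over 15 B cell markers the median log2 change was 0.01. Pax5, Ebf1 and Rag1 were at 0 in KO GMP 1. They reached at most 0.156, 0.203 and 0.232 CPM in the other GMP libraries, so these zeros do not set KO GMP 1 apart. The summed B cell markers, at 33.4 CPM, were below every WT GMP library and held 27.0 CPM of Cd79b. Over 18 monocyte and macrophage markers, 8 of them positive, the median log2 change was -0.23. Ly6c2 was at 279 CPM in KO GMP 1 and 2721 and 2456 CPM in WT GMP 1 and 2. The macrophage gene Siglec1 was at 5.29 CPM in KO GMP 1 and 0.0692 and 0.339 CPM in WT GMP 1 and 2. Over 10 stroma markers the median log2 change was 5.05, with a sum of 235 CPM in KO GMP 1, against 118 to 123 CPM in WT GMP. Most of the sum is Pecam1, and the other 9 stroma genes summed to 75.4 CPM in KO GMP 1, against 1.32 to 2.87 CPM in WT GMP. Among the genes of the sort gate, Fcgr3, which encodes CD16, measured 125 CPM in KO GMP 1, 311 and 295 CPM in KO GMP 3 and 4 and 239 to 315 CPM in WT GMP. It measured 12.9, 18.8, 31.1 and 28.1 CPM in KO CMP 1 to 4 and 36.6 to 115 CPM in WT CMP. For Fcgr3, KO GMP 1 was thus above every CMP library and below every other GMP library. Cd34 measured 547 CPM in KO GMP 1, against 206 to 326 CPM in WT GMP and 525 to 693 CPM in WT CMP. In KO CMP 1 to 4 it measured 747, 707, 740 and 704 CPM. The part of these differences in the class II values of KO GMP 1 was not tested.

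Markers also separated KO CMP 2, with high class II RNA, from KO CMP 1, with low. Summed B cell markers were 27.9 CPM in KO CMP 1 and 77.1 CPM in KO CMP 2, against 47.8 to 65.5 CPM in WT CMP. Summed dendritic cell markers were 690.4 and 832 CPM in KO CMP 1 and 2, both below the 957 to 1492 CPM of WT CMP. Summed monocyte and macrophage markers were 506 CPM in KO CMP 1 and 759 CPM in KO CMP 2, against 1755 to 2449.6 CPM in WT CMP. Summed T and NK cell markers were 157 and 223 CPM, within the 141 to 276 CPM of WT CMP. Single genes of these lists went in both directions. The macrophage gene C1qa was at 0.951 CPM in KO CMP 1 and 9.75 CPM in KO CMP 2. The T cell gene Cd3g was at 0.0544 CPM in KO CMP 1 and 4.94 CPM in KO CMP 2. In the same order Lyz2 was at 130 and 115 CPM and Nkg7 at 137 and 130 CPM. Stroma sums were high in both, 288 CPM in KO CMP 1 and 331 CPM in KO CMP 2, against 134 to 161 CPM in WT CMP. Without Pecam1 they were 153 CPM in KO CMP 1 and 218 CPM in KO CMP 2, against 4.82 to 25.02 CPM in WT CMP. Their part in the class II levels of these libraries was not tested.

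**Figure D5:**
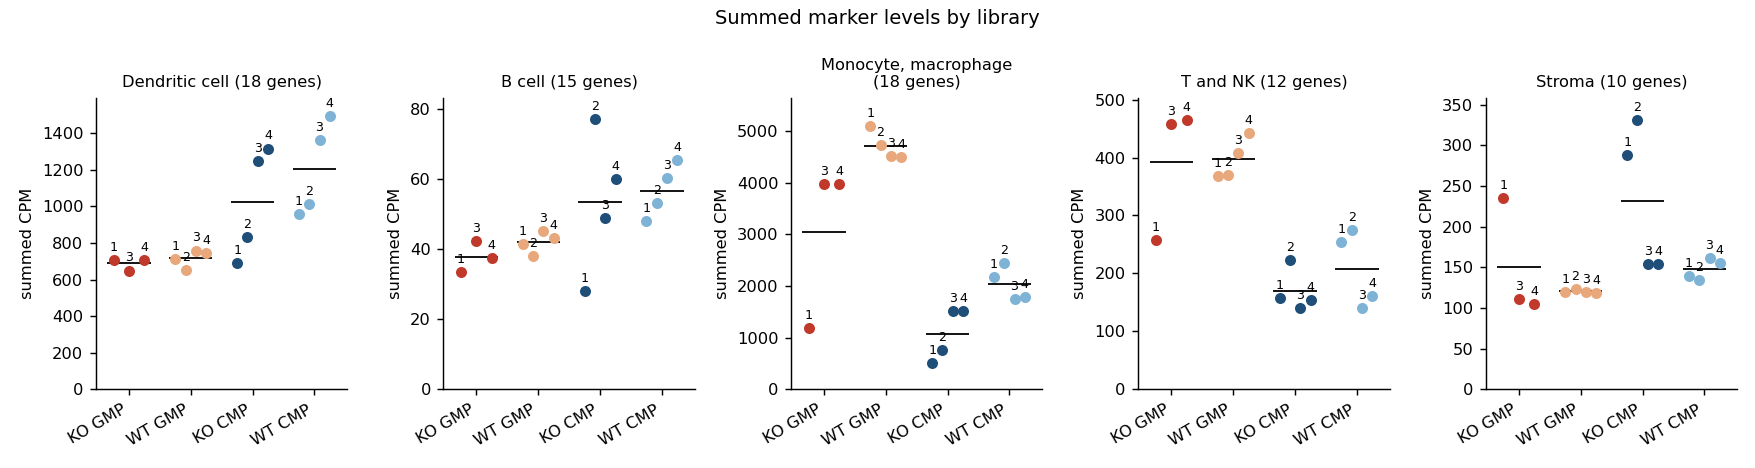
Each panel plots the summed CPM of a marker list (y axis from 0) by group, with KO GMP, WT GMP, KO CMP and WT CMP from left to right; points are libraries labelled with their number, and bars are group means. KO CMP 2 has the highest B cell sum (77.1 CPM) and KO CMP 1 the lowest (27.9 CPM), and both have high stroma sums, as does KO GMP 1 (235 CPM).

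Among 12013 other genes with a mean of at least 1 CPM, the pattern closest to the mean of the 7 genes was that of Mycl1. Likeness was measured as Pearson's r over the 15 libraries with the mean standardised log2 CPM of the 7, and it is a description, since the libraries share cell type and number set. Mycl1 reached 0.983, followed by Pid1 (0.981), Rnase6 (0.972), Clec9a (0.972), Zbtb46 (0.972), Ephb2 (0.972), Bend5 (0.969), Aim1 (0.963), Plbd1 (0.963) and Rtn4rl1 (0.962). Clec9a and Zbtb46 are in the dendritic cell list. Mycl1 measured 7.32, 1.42 and 1.51 CPM in KO GMP 1, 3 and 4, against at most 1.94 CPM in WT GMP, and 2.70 CPM in KO CMP 1 and up to 12.5 CPM in the other KO CMP libraries, against 8.27 to 17.8 CPM in WT CMP. Like the class II genes it was high in KO GMP 1 and lowest among CMP libraries in KO CMP 1. Plbd1 measured 36.6, 5.50 and 4.90 CPM in KO GMP and 8.56, 33.6, 31.4 and 34.4 CPM in KO CMP, with the same 2 libraries out of place. With group means removed the closest genes were Mycl1 (0.963), Padi2 (0.936), Rnd3 (0.929), Plbd1 (0.927) and Csrp3 (0.926), a measure on which KO GMP 1 and KO CMP 1 weigh most. Of the 7 themselves, H2-Ab1 was nearest to the mean of the set (0.984) and H2-DMb1 farthest from it (0.531).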

How the data were processed

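RNA was measured in 15 libraries. Per the labels' protocols, cells were sorted on a MoFlo Astrios EQ and libraries were made with a SMARTER mRNA-Seq kit. The submitters' processing notes name HISAT and the build mm10; the sources used here do not name the counter, its annotation or its use of strand. The authors deposited a table of values per gene symbol and library, treated here as estimated counts: all are whole numbers, and 38.0% of 40915 values between 1 and 40 were multiples of 4, against 25% in an even spread. A fragment was therefore taken as about 4 units, and dividing by 4 was tried as an alternative. Units above the number of fragments make counting error look smaller than it is, while the spread between libraries is kept. No rounding was needed. Symbols turned into dates (25) name no gene of the lists.

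Groups and library numbers were taken from the titles. Libraries were scaled by TMM, genes were filtered by filterByExpr on the groups, and edgeR 4.0.16 (R 4.3.3) quasi-likelihood tests were adjusted by Benjamini-Hochberg over 15181 genes with a threshold of 0.05. A fit of the 4 groups had 11 residual degrees of freedom. A fit of cell type, genotype and number set (numbers 1 and 2 against 3 and 4) had 7. Standard errors are the fold change divided by the root of F. Motifs, overlaps and lengths were read from RefSeq (GRCm38.p6) and GENCODE M21. The deposited columns hold 1 library each and no pair of libraries was identical. On simulated counts for WT GMP against WT CMP (14868 genes), 79.1%, 98.5% and 100% of genes changed by 1, 2 and 3 on the log2 scale were called, and for KO GMP against WT GMP (14900 genes) 73.1%, 91% and 98.5%. The changed genes had a mean of at least 1 CPM, and the simulated counts held no number sets and no libraries that stood apart. These shares therefore do not give the power for the 7 genes in the real libraries.

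Same-numbered KO and WT libraries deviated together from their group means (correlations of 0.199 to 0.501 in CMP and 0.127 to 0.324 in GMP), so the number was tried as a block. Other numbers of the same set correlated as well, in some cases more. KO CMP 3 gave 0.317 with WT CMP 4 and 0.207 with WT CMP 3, while KO CMP 4 gave 0.501 with WT CMP 4 and 0.176 with WT CMP 3. The correlations thus mark the number sets and do not single out pairs, and the labels do not say what a number marks.

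The 7 genes and the lists (class II chains outside the 7, docking proteins of Ciita, processing, costimulation, genes upstream of Ciita, class I pathway, cell type markers) were chosen with earlier results of these data known. The number sets come from an earlier analysis that had seen the libraries part. In a list, named genes are among the 6 with the smallest p in the comparison described, or are genes a result turns on. Like patterns are the 10 highest Pearson correlations, and the 5 highest with group means removed. Alternatives were another scaling (RLE), no filter, DESeq2 1.42.0, only the groups compared, a replicate block, the number set as a covariate, each library left out, and all 3 libraries that stood apart left out. The difference of the GMP against CMP step between the WT number sets was added after the data were seen.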

Additional observations from a re-analysis of the deposited data

Results flagged for a closer look

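H2-Ab1 in KO CMP 1, at 78.9 CPM, lay far below the other 3 KO CMP libraries (153 to 172 CPM). Ciita in WT CMP 3, at 15.5 CPM, lay far above the other 3 WT CMP libraries (11.2 to 11.7 CPM). These are 2 of 21 tests of a library against its group, of which chance alone flags about 1 in 20.

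The knockout effect in CMP differed between the number sets for H2-DMb1, by -0.49 (numbers 1 and 2 minus numbers 3 and 4, adjusted p = 0.0413). The knockout effect in GMP differed between the same sets by 3.45 for H2-Aa, 1.81 for H2-Ab1, 3.28 for H2-Eb1, 3.31 for Cd74 and 4.69 for Ciita, and since numbers 1 and 2 hold a single KO GMP library, this rests on KO GMP 1 and shows no replication. The step between GMP and CMP in WT libraries differed between the sets by 0.82 for H2-DMa and by 0.50 for H2-DMb1. What made the number sets differ was not tested.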

How the results depend on the processing

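The fall of 6 of the 7 genes in WT GMP was called under every alternative tried, with 6 or 7 called. In KO, GMP against CMP called 1 gene, 2 with DESeq2, 7 without the 3 libraries that stood apart, and 1 to 6 with single libraries left out. With single libraries left out, the numbers of the 7 genes called ran from 1 to 6 for KO against WT in CMP numbers 1 and 2 (1 on all libraries), 0 to 4 for the difference of that effect between the sets (1), 0 to 6 for the WT CMP sets (2), 0 to 3 for the WT GMP sets (1) and 1 to 2 for the difference of the WT step (2). The difference between the CMP sets gave 0 with RLE scaling, and the WT CMP sets gave 1 without the filter. Without KO CMP 2, H2-Eb1 turned to -0.54 in CMP numbers 1 and 2 (0.83 without KO CMP 1), and H2-Ab1 gave -0.55 for the difference between the sets (0.43 without KO CMP 1). Why these values moved was not tested. The replicate block changed no call among the 7 genes, with 6 called in WT and 1 in KO for GMP against CMP and H2-Ab1 in KO at -1.07 (adjusted p = 0.0953). Of 2387 values of single genes, 69 changed sign with no call on either side, the largest being Ciita for KO against WT in GMP (2.32, and -0.24 without KO GMP 1).

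Over all genes, DESeq2 called 368 for KO against WT in CMP, 60 in GMP, 3 for the difference between them, 135 in CMP numbers 3 and 4, 42 in GMP numbers 3 and 4, 2050 for the WT GMP sets and 1294 for the WT step, where edgeR called 0, 0, 0, 1, 2, 1307 and 834 in the same order. With only the groups compared, GMP against CMP in KO called 1876 genes in place of 3225. In GMP numbers 3 and 4, 12 genes were called without the filter and 9 on counts divided by 4, and in CMP numbers 3 and 4, 4 without the filter. With the number set as a covariate, KO against WT in GMP called 5. Leaving out single libraries gave 1656 to 4390 genes for GMP against CMP in KO, 2430 to 4472 in WT, and 0 to 50 for KO against WT in CMP. The depth of Ciita in GMP, 10 to 28.25 fragments in WT libraries, limits its fold there.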
